A study of Mus musculus with 48 samples.

Results

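Left ventricles of mouse hearts that had been stopped and then reperfused were compared between 48 and 8 weeks of age. The comparison rests on 12 of the 48 arrays of the series, chosen by their labels alone: the 6 hearts labelled ischaemia-reperfused (I/R) at 48 weeks and the 6 with that label at 8 weeks. All mice were male C57BL/6 without any engineered allele in the labels, bought at 7 weeks of age and kept to the age given. After pentobarbital anaesthesia each heart was perfused outside the body through the aorta (Langendorff mode), allowed 20 min to stabilise, deprived of flow for 25 min at body temperature and then reperfused for 45 min. Such a heart has no circulating blood, nerve supply or work against pressure, which limits it as a model of an infarct. The same steps were applied to 6 I/R hearts each at 16 and 32 weeks, and 6 normoxic hearts at each of the 4 ages were perfused without interruption for the same time. Normoxic hearts at 48 and 8 weeks served here to show where the age difference of reperfused hearts departed from that of hearts never made ischaemic. RNA was measured on Illumina bead arrays, 1 array per heart, and a level is a normalized log2 intensity of a gene's brightest probe, so levels of different genes are not compared.

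Reperfusion returns oxygen to muscle that has run on glycolysis and lost its ion gradients. Within minutes, surviving cells transcribe immediate early genes such as the Fos and Jun families, and heat shock proteins, chemokines and adhesion molecules follow. RNA made before the heart was removed is still present after so short a perfusion. A difference between ages can therefore lie in the resting heart, in the response to ischaemia, or in both. Hearts of older mice are known to bear ischaemia less well, and the heart, like other organs, is known to keep a daily clock whose genes change with the hour of collection.

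Heart muscle was present: all 12 cardiomyocyte markers measured, among them Myh6, Tnnt2 and Ryr2, were detected on all 12 arrays. These markers do not tell ventricle from atrium. Of 5 atrial and conduction markers measured, 3 were detected on all arrays at 48 weeks and 3 at 8 weeks. Their summed linear level was 3127 to 14706 at 48 weeks and 5998 to 16831 at 8 weeks. The median log2 difference of these 5 was -0.66, and 1 of them passed, as lower. Whether hearts differed in atrial tissue was not tested. RNA integrity was lower in the older hearts. The RNA integrity number was 7.60 ± 0.11 (SD, n = 6) at 48 weeks and 8.08 ± 0.15 (SD, n = 6) at 8 weeks, with no overlap (exact two-sided permutation p = 0.00216, the smallest that 924 regroupings can give). Between 11072 and 12396 probes were detected per array at 48 weeks, against 13099 to 13854 at 8 weeks (exact permutation p = 0.00216). In normoxic hearts neither number passed its test (exact permutation p = 0.171 for integrity and 0.578 for probes), with a mean integrity number of 8.30 at 48 weeks and 8.52 at 8 weeks. The main axis of variation among the 24 reperfused arrays, 26.7% of the variance, placed the 12 hearts of 8 and 16 weeks between -21.4 and -11.4 and the 12 hearts of 32 and 48 weeks between 13.4 and 20.8. Most of the difference between 8 and 48 weeks thus lay between 16 and 32 weeks. One 8-week heart, replicate 4, stood apart in fat cell markers: Adipoq (adiponectin) had a log2 level of 10.15 there, against at most 6.56 in the other 5, and Car3 had 10.54, against at most 6.02. The summed level of the 5 fat cell markers measured was 1144 to 1360 at 48 weeks and 1113 to 3998 at 8 weeks (at most 1410 in the other 5). Without this heart 3690 genes passed between ages, and the calls its removal ended among the genes described are named below. The labels name no slide, scan or extraction batch, so age and any batch that followed it cannot be told apart. Whether RNA integrity plays a part in the results was not tested beyond a fit with the integrity number as a covariate, in which 3179 genes passed.

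**Figure D1:**
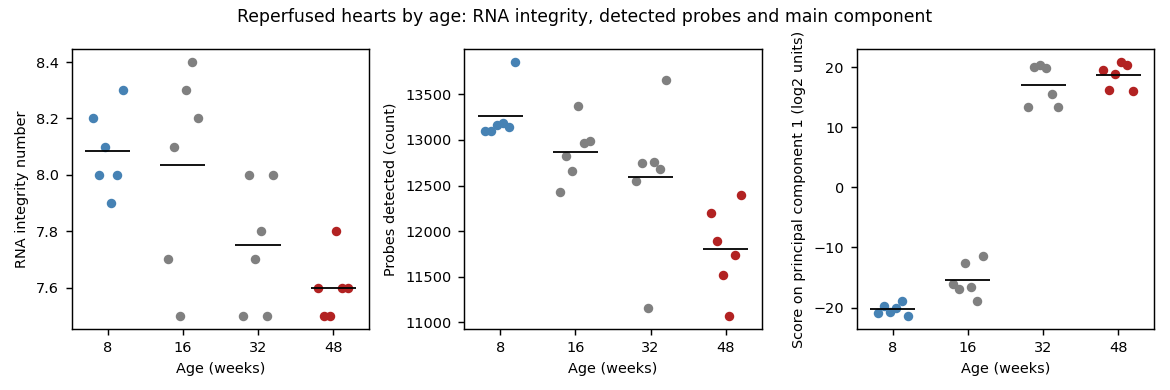
RNA integrity number, number of probes detected and score on the main component for each reperfused heart (points), by age in weeks, with the group mean as a line. Integrity numbers lie between 7.5 and 7.8 at 48 weeks and between 7.9 and 8.3 at 8 weeks, and component scores change sign between 16 and 32 weeks.

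Of 9811 genes measured, 3855 (39.3%) passed an adjusted p of 0.05 (limma, Benjamini-Hochberg over all genes) between I/R hearts of 48 and 8 weeks. At 48 weeks 1829 genes (18.6%) were higher and 2026 (20.7%) were lower, and the median log2 difference over all genes was -0.01. Most differences were small: 71 genes rose and 196 fell by more than 2-fold. For 1765 of the 3855 genes the 6 older and 6 younger hearts did not overlap, and over all genes 18.3% did not overlap (8.80% with the older hearts above and 9.49% with them below). The p-values rest on 1 estimate of the spread per gene, taken within the 8 groups over all 48 arrays, each heart from its own mouse. With only the 12 arrays compared, 3393 genes passed. Normoxic hearts differed far less with age: 161 genes (1.64%) passed between 48 and 8 weeks, 89 higher (0.907%) and 72 lower (0.734%). In the same fit the steps in reperfused hearts held 170 genes (1.73%) from 8 to 16 weeks, 3618 (36.9%) from 16 to 32 weeks and 705 (7.19%) from 32 to 48 weeks, and 39.8% of all genes passed between 32 and 8 weeks. The steps in normoxic hearts held 4, 5 and 0 genes (with 504 at an unadjusted p under 0.05 for the last).

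Probes of the same gene did not always agree. Of 2813 genes with at least 2 detected probes, 45.7% passed on the brightest probe and 26.8% on the next one, and 392 had both the brightest and the next probe past the threshold between I/R hearts of 48 and 8 weeks, and the directions were the same for 248 and opposite for 144 (36.7%). In the normoxic comparison all 9 such genes had the same direction. Of all 1285 genes that passed on the brightest probe in I/R hearts and had a second one, 735 had the same sign on it. In normoxic hearts this held for 36 of 44. Over the 2813 genes, the log2 differences of the 2 probes had a correlation of 0.17 in I/R and 0.47 in normoxic hearts. By step, the opposite share was 42.7% of 330 genes from 16 to 32 weeks, against 1 of 17 genes from 32 to 48 weeks. A call that rests on a single probe therefore describes that probe's target region, and the value of the second probe is given below wherever one was detected for a gene described in full. For other genes a second probe may have been detected without its value being given. Calls among the genes described that changed when all detected probes of a gene were averaged are named below.

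**Figure D2:**
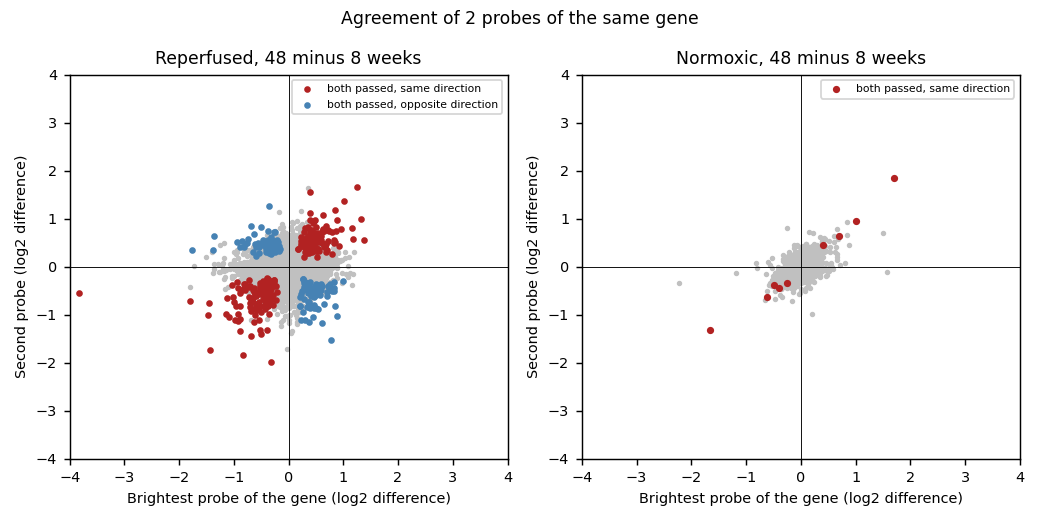
Log2 difference between 48 and 8 weeks for the brightest probe of a gene (x axis) and its second probe (y axis), for 2813 genes, in reperfused hearts (left) and normoxic hearts (right). Red points passed on both probes in the same direction and blue points in opposite directions: 248 and 144 in reperfused hearts, and 9 and 0 in normoxic hearts.

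The largest rises in older reperfused hearts included chemokines, a hyaluronan synthase, clock outputs and genes of the salivary and pancreatic kind. Ccl11 (eotaxin), which attracts eosinophils, had log2 levels of 8.98, 9.29 and 9.82 (lowest, median, highest) at 48 weeks, against 6.53, 7.00 and 7.49 at 8 weeks. All 6 older hearts lay above all 6 younger ones. The rise was 2.38 ± 0.22 on the log2 scale (SE, 5.22-fold, limma adjusted p = 1.79e-11), and it stood at 1.27 at 16 weeks and 2.23 at 32 weeks against the same 8-week hearts. Ccl8, a chemokine for monocytes, had levels of 6.32, 7.56 and 9.09 at 48 weeks and 5.03, 5.35 and 6.27 at 8 weeks, where it was detected in 1 of 6 hearts. Its groups did not overlap either, and the rise was 2.05 ± 0.34 (4.14-fold, limma adjusted p = 3.97e-06). Serpina3n, a secreted protease inhibitor of the acute phase, rose by 2.31 ± 0.30 on the log2 scale, with the reservation that close copies of the gene exist. Has1, which makes the matrix sugar hyaluronan, reached levels of 9.46 to 10.09 at 48 weeks, against 6.48 to 8.72 at 8 weeks, a rise of 2.14 ± 0.37 (4.42-fold). Inmt, a methyltransferase that acts on indoles and other small amines, rose by 2.16 ± 0.34.

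Genes with neuronal or metabolic roles were also among the highest risers. Sh3gl2 (endophilin A1), which helps bud vesicles from the membrane, had levels of 7.56, 8.18 and 8.69 at 48 weeks, against 5.57, 5.86 and 6.79 at 8 weeks. The groups were separate, with a rise of 2.19 ± 0.26 (4.56-fold, limma adjusted p = 6.79e-09). Abat, the enzyme that breaks down GABA, rose by 2.19 ± 0.31 and was detected in all 6 older and 4 of 6 younger hearts. Cib3, a calcium- and integrin-binding protein, rose by 1.74 ± 0.23. The amylase genes Amy2a5 and Amy1, whose sequences are near copies of each other, rose by 1.94 ± 0.16 and 1.72 ± 0.21, and the kallikrein Klk1b26 rose by 1.25 ± 0.22 with 1.65 on its second probe. These 3 genes are the measured markers of exocrine glands, whose summed linear level was 1142 to 1521 at 48 weeks, against 285 to 535 at 8 weeks. The other 5 markers of that list (Klk1, Prss1, Pnlip, Cela1 and Ctrb1) were not detected. Their share in the other results was not tested.

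**Figure D3:**
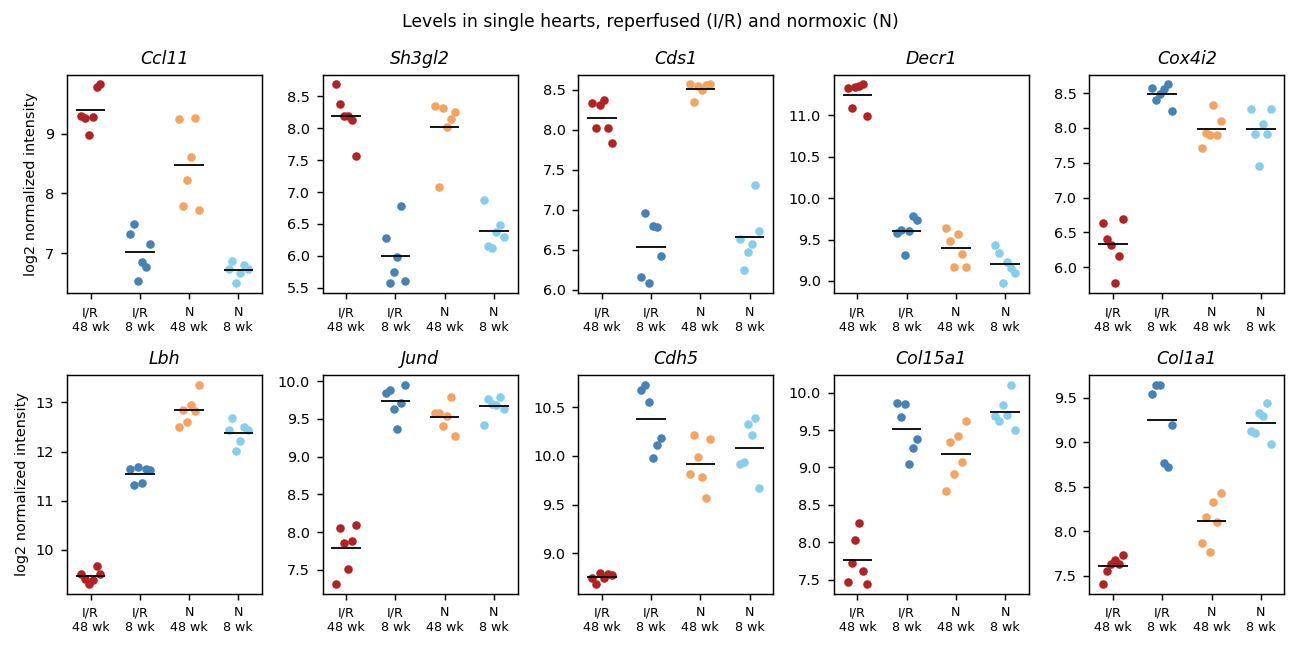
Log2 normalized intensity in single hearts (points) for 10 genes, in the order I/R 48 weeks, I/R 8 weeks, normoxic (N) 48 weeks and normoxic 8 weeks, with the group mean as a line. Each panel has its own y range. Ccl11, Sh3gl2 and Cds1 are higher at 48 weeks under both treatments, and Col1a1 is lower, whereas Decr1, Cox4i2, Lbh, Jund, Cdh5 and Col15a1 passed between ages in I/R hearts only, with a tested difference between treatments.

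The largest falls included transcription factors, an integrin and an isoform of cytochrome oxidase. Cox4i2, the hypoxia-linked isoform of subunit 4 of the terminal respiratory enzyme, had levels of 5.77, 6.36 and 6.69 at 48 weeks, against 8.24, 8.53 and 8.62 at 8 weeks. The 2 groups were more than 1 log2 unit apart. The log2 difference was -2.15 ± 0.13 (4.45-fold lower, limma adjusted p = 2.62e-17), and the difference from 8 weeks was -0.70 at 16 weeks and -2.04 at 32 weeks. Lbh, a developmental co-regulator of transcription, had levels of 9.30, 9.45 and 9.67 at 48 weeks and 11.31, 11.63 and 11.69 at 8 weeks. Its log2 difference was -2.08 ± 0.16 (4.23-fold lower, limma adjusted p = 5.5e-14). Mafk, a small Maf protein that pairs with Nrf2 and Bach1, was detected in none of the older hearts and in all 6 younger ones, with a level at least 1.95-fold lower. Here and below, "at least" means that a probe was not above background on any array of the lower group, so that its level on each of them was taken as the lowest signal of a detected probe on that array, or as its own where that was higher.

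Among the other large falls, Itga5, the integrin chain that binds fibronectin, was detected in 0 of 6 older and 6 of 6 younger hearts and was at least 2.55-fold lower (limma adjusted p = 1.35e-11). Emilin2, an elastic-fibre glycoprotein, fell by 1.95 ± 0.18, and Adamtsl2, which binds latent TGF-beta binding proteins in the microfibril network, was at least 1.90-fold lower. Efnb2 (ephrin B2), the arterial ligand of Eph receptors, fell by 1.84 ± 0.19. Arhgap10 fell by 1.81 ± 0.16, and fell by 0.71 on its second probe (adjusted p = 0.000711 over all probes). The largest fall of all, -3.83 ± 0.46 for Erdr1, belongs to a repeated gene near the end of the X chromosome whose second probe gave -0.56, so its size is uncertain.

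Hearts of both treatments shared a set of age differences. Of the 161 genes that passed in normoxic hearts, 92 (57.1%) passed in the same direction in reperfused hearts, where they made up 2.39% of the 3855 genes: 53 were higher and 39 lower at 48 weeks. Of all 9811 genes, 18.6% were higher and 20.7% lower in reperfused hearts. Another 12 of the 161 genes passed in the opposite direction there. The 2 comparisons share no heart. All 16 genes with the largest normoxic differences, 8 in each direction, were among the 92. Cds1, which makes the CDP-diacylglycerol from which phosphatidylinositol and cardiolipin are built, had levels of 7.83, 8.16 and 8.37 in I/R hearts at 48 weeks, against 6.08, 6.60 and 6.95 at 8 weeks. It was 1.61 ± 0.15 higher in I/R hearts (3.05-fold) and 1.85 higher in normoxic hearts, and the groups of I/R hearts were separate. Rab4a, a GTPase of early endosomes that returns receptors to the surface, differed by 1.37 in I/R and 1.81 in normoxic hearts. BC048679, a gene with no role given here, was detected in no 8-week heart of either treatment, and was at least 1.70-fold higher at 48 weeks in I/R hearts and at least 1.91-fold higher in normoxic hearts. Camk2b, a calcium- and calmodulin-dependent kinase, differed by 1.27 and 1.10, and Bdh1, the mitochondrial enzyme that oxidises the ketone body 3-hydroxybutyrate, by 1.17 and 1.58, although the second probe of Bdh1 gave -0.16 in I/R hearts.

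Shared falls included matrix, muscle and transport genes. Col1a1, the main chain of type I collagen, had levels of 7.41, 7.63 and 7.74 at 48 weeks and 8.72, 9.37 and 9.65 at 8 weeks in I/R hearts. No older heart reached a younger one, and the differences were -1.64 ± 0.21 in I/R and -1.10 in normoxic hearts (limma adjusted p = 2.42e-08 and 0.00116). Eln (elastin) differed by -1.12 and -0.99, and Tfrc, the transferrin receptor that brings iron into cells, by -1.13 and -1.25. Ddc, which makes dopamine and serotonin from their amino acid precursors, was detected in no older heart of either treatment. It was at least 1.58-fold lower in I/R hearts, where it fell by 1.0 on its second probe, and at least 2.41-fold lower in normoxic hearts. Tnni2, the fast skeletal troponin I, was at least 2.19-fold lower in I/R hearts and differed by -1.34 in normoxic ones. Kcne1, a potassium channel subunit, differed by -1.73 and -2.23, but its second probe gave 0.01 in I/R hearts. Adamts12, a metalloprotease, differed by -1.08 and -0.81, with 0.06 on its second probe. Ramp1, a receptor-modifying protein for CGRP, differed by -0.71 and -1.04, and lost its call in I/R hearts when replicate 4 of the 48-week hearts was left out (adjusted p = 0.0565).

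The age difference itself differed between treatments for 2097 genes (21.4%, limma interaction), 1006 in the positive (10.3%) and 1091 in the negative direction (11.1%). With arrays centred on their medians in place of quantile normalization the positive share of these genes was 60.4%, against 48.0%, so the balance of directions depends on the scaling. Among the 3855 genes that differed with age in I/R hearts, 1966 also passed this test. The smallest p-values belonged to Tle5, Cox4i2, Selenow, Lbh, Decr1, Pgls, Pcbp4 and Tmem214. Tle5, a member of the Groucho family of transcriptional regulators, had levels of 9.46 to 9.87 in I/R hearts at 48 weeks and 10.92 to 11.05 at 8 weeks. The groups were far apart relative to their spread, and the gene differed by -1.35 ± 0.08 in I/R hearts and by 0.00 in normoxic hearts (interaction -1.35, adjusted p = 2.85e-12). Selenow, a small selenoprotein of muscle, followed with -1.30 in I/R and 0.07 in normoxic hearts. Decr1, the mitochondrial reductase needed to oxidise polyunsaturated fatty acids, had a median level of 11.33 at 48 weeks and 9.61 at 8 weeks without overlap, which gives 1.64 ± 0.10 in I/R hearts (3.12-fold), against 0.19 in normoxic hearts. Pgls, an enzyme of the pentose phosphate pathway, differed by 0.95 in I/R hearts, with 0.77 on its second probe, and by -0.16 in normoxic hearts. For Pcbp4, an RNA-binding protein, the I/R and normoxic differences were 0.89 and -0.07. For Tmem214, a protein of the endoplasmic reticulum, they were 1.08 and -0.11, but its second probe gave -0.22 in I/R hearts.

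By age, 1 of these 8 genes (Cox4i2) had passed at 16 weeks in I/R hearts and all 8 at 32 weeks. Of all genes, 1.73% passed at 16 weeks and 39.8% at 32 weeks against 8 weeks. The 8 were chosen by a test that uses the same 8-week hearts, so their counts are no independent result. Tle5, Selenow and Pcbp4 differed from 8 weeks by -0.07, -0.03 and 0.03 at 16 weeks and by -1.41, -1.39 and 0.90 at 32 weeks, while Lbh and Decr1 lay between, with -0.43 and 0.34 at 16 weeks. Of the 16 genes with the largest normoxic differences, 10 had passed in the same direction at 16 weeks in I/R hearts, among them Cds1 with 0.74, Amy2a5 with 1.32 and Col1a1 with -0.79. Others of the 16 had not, such as Rab4a (0.56) and BC048679 (0.23). All these values use the same 8-week I/R hearts.

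Opposite age differences, past the threshold under both treatments, were found for 12 genes. Uba6, which activates ubiquitin, had the largest interaction of them (-1.45). Its levels were 9.13, 9.66 and 9.84 in I/R hearts at 48 weeks, against 10.12, 10.49 and 11.05 at 8 weeks. The groups did not overlap, with -0.88 ± 0.15 in I/R and 0.56 in normoxic hearts. Pbxip1, which binds Pbx transcription factors, differed by -0.68 and 0.50, and Acad11, an acyl-CoA dehydrogenase, by -0.25 and 0.43. In the other 9 the I/R difference was positive and the normoxic one negative: Sppl2b (0.38 and -0.43), Dcakd (0.33 and -0.39), Stab1 (0.31 and -0.53), Coq6 (0.31 and -0.26), Ankrd10 (0.31 and -0.52), Igf2 (0.28 and -0.43), Atox1 (0.25 and -0.43), Dbndd2 (0.24 and -0.33) and Cdk2ap1 (0.19 and -0.25). Stab1 is a scavenger receptor of macrophages and sinus endothelium, Coq6 acts in ubiquinone synthesis, Igf2 is a growth factor and Atox1 a copper chaperone. The I/R differences of Acad11, Ankrd10, Atox1, Igf2 and Stab1 did not pass with the integrity number as a covariate (adjusted p = 0.067, 0.186, 0.485, 0.0607 and 0.136). Leaving out single hearts also ended some of these calls: Acad11 without 48-week replicates 1, 2 or 3 or 8-week replicates 3 or 4 (adjusted p of 0.0533 to 0.0614), and Ankrd10 without 48-week replicates 3, 4 or 5 or 8-week replicates 2, 3, 4 or 5 (0.0523 to 0.0878). Atox1 did not pass without 48-week replicates 1, 3, 4 or 5 or 8-week replicates 1, 5 or 6 (0.0509 to 0.105), nor Igf2 without 48-week replicates 1, 2, 4, 5 or 6 or 8-week replicates 3, 4 or 6 (0.0510 to 0.158). Opposite signs of these 4 genes thus rest on I/R differences close to the threshold. With all detected probes of a gene averaged, the I/R difference was -0.03 for Stab1 and -0.004 for Ankrd10, and neither passed. Coq6 and Igf2 did not pass with averaged probes.

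Collagen and matrix genes were lower more often than higher. Of 34 measured, 21 (61.8%) fell and 2 (5.88%) rose, against 20.7% and 18.6% of all genes, with a median log2 difference of -0.56, against -0.01 over all genes. In normoxic hearts 9 of the 34 fell and 0 rose, where 0.734% of all genes fell and 0.907% rose. Col15a1, a basement membrane collagen of vessels and muscle, had levels of 7.44, 7.67 and 8.26 at 48 weeks, against 9.04, 9.53 and 9.87 at 8 weeks. It fell by 1.75 ± 0.19 without overlap (3.37-fold lower, limma adjusted p = 4.18e-10). Sparc, which binds collagen during its assembly, fell by 1.20 ± 0.15, and Ltbp4, which stores TGF-beta in the matrix, fell by 1.02 ± 0.12 with -0.64 on its second probe. Col6a1 fell by 1.08 ± 0.12, but its second probe gave -0.04. For Col3a1, a fibrillar collagen, the brightest probe fell by 1.81 ± 0.26 and the second gave -0.43 (adjusted p = 0.14 over all probes). All 7 genes of the list that passed and had a second probe kept their sign on it, and 2 of them passed on both. Second probes kept the sign for fewer members of some lists described below: 1 of 4 for endothelial markers, and 0 of 3 for vessel wall genes, 0 of 2 for chaperones and 0 of 2 for complex I. Among matrix proteases, their inhibitors and collagen-processing enzymes, 8 of 27 (29.6%) fell and 4 (14.8%) rose: Serpinh1, the collagen chaperone of the endoplasmic reticulum, fell by 0.64 ± 0.10, whereas Mmp3 (stromelysin 1) rose by 1.17 ± 0.32, with 0.81 on its second probe.

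Of fibroblast markers, some of which are also on the matrix list, 5 of 12 measured (41.7%) fell and 1 rose, and their summed linear level was 15942 to 22140 at 48 weeks, against 17165 to 21460 at 8 weeks. The sums overlapped. In tissue RNA, fewer cells of a type and less RNA per cell cannot be told apart. Endothelial markers fell in 6 of 18 cases (33.3%) and rose in 2 (11.1%). For these and the other marker lists here, 20.7% of all genes fell and 18.6% rose. Cdh5 (VE-cadherin), the adhesion molecule of endothelial junctions, had levels of 8.69, 8.76 and 8.79 at 48 weeks and 9.97, 10.37 and 10.73 at 8 weeks. The older hearts were almost identical to each other and all lay below the younger ones, with a log2 difference of -1.62 ± 0.14 (3.07-fold lower, limma adjusted p = 1.7e-12) and a normoxic difference of -0.16. The receptor Tie1 fell by 1.27 ± 0.14 and the receptor Tek fell by 1.10 ± 0.14, while Eng fell by 0.72 on its brightest probe and had 0.09 on its second. Vessel wall genes fell in 6 of 12 cases (50%) and rose in 3 (25%): Notch3 fell by 1.01 ± 0.15 and Pdgfrb, the receptor of pericytes, fell by 0.71 ± 0.10. Only members that fell are given with values here, so these values do not describe the lists as a whole. Pecam1 of the endothelial list and Mylk of the vessel wall list passed in opposite directions on their 2 probes. The summed endothelial level was 18838 to 22657 at 48 weeks and 19000 to 28072 at 8 weeks, again overlapping. Of the cardiomyocyte markers only Ckm, muscle creatine kinase, passed among 12, with -0.64 ± 0.08. Macrophage markers held 2 falls in 11 (18.2%, near the share of all genes). They were C1qb and C1qc, both -0.60, which did not pass with the integrity number as a covariate (adjusted p = 0.124 and 0.105). C1qb also did not pass without 48-week replicates 2, 3, 4 or 5 or 8-week replicates 2 or 4 (adjusted p of 0.0561 to 0.0867), nor C1qc without 48-week replicates 3, 4 or 5 or 8-week replicates 2, 3 or 4 (0.0618 to 0.102). Neutrophil and T cell lists had a single measured marker each, and Cd3e and S100a8 were not detected.

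**Figure D4:**
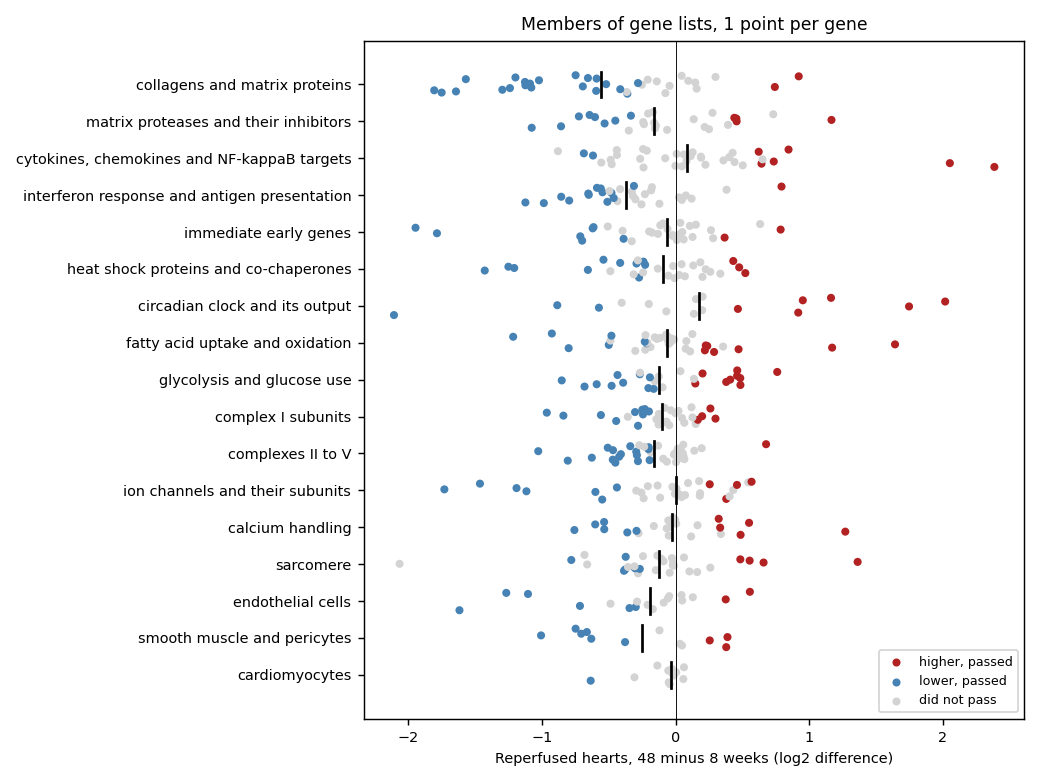
Log2 difference between I/R hearts of 48 and 8 weeks for each measured member (points) of 17 gene lists, with the list median as a bar. Red members were higher and blue members lower past the threshold. The matrix list has the lowest median (-0.56), followed by interferon and antigen presentation genes (-0.37).

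Of 35 cytokine, chemokine and adhesion genes 6 (17.1%) rose and 2 (5.71%) fell, with a list median of 0.08. The share that rose was near that of all genes (18.6%). Vcam1, which arrests leukocytes on endothelium, had levels of 10.43, 10.66 and 11.26 at 48 weeks, against 9.32, 9.81 and 10.60 at 8 weeks. The ranges overlapped, and the rise was 0.84 ± 0.20 (limma adjusted p = 0.000583) with 1.18 on its second probe and 0.85 in normoxic hearts. Relb, a subunit of NF-kappaB, fell by 0.69 ± 0.21, a call that did not hold with the integrity number as a covariate (adjusted p = 0.111). In normoxic hearts 6 members of the list were higher at 48 weeks and 0 lower, where 0.907% of all genes were higher and 0.734% lower. Il6 was one of them there, at 1.23, and differed by 0.40 in I/R hearts (adjusted p = 0.228), with an interaction that did not pass (adjusted p = 0.105). Il6 was named after its values were seen.

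Interferon and antigen presentation genes fell in 13 of 30 cases (43.3%, against 20.7% of all genes) and rose in 1, with a median of -0.37. Cd74, the invariant chain of class II antigen presentation, had levels of 8.96, 9.29 and 9.86 at 48 weeks and 9.98, 10.33 and 10.94 at 8 weeks. The groups were separate by a narrow margin, with a log2 difference of -0.99 ± 0.24 (limma adjusted p = 0.000798) and -1.11 on the second probe. Ddx58 (RIG-I), a sensor of viral RNA, was at least 1.70-fold lower and fell by 0.66 on its second probe, and Ifit2, an interferon-induced inhibitor of translation, fell by 0.86 ± 0.15. Tap2, which carries peptides to class I molecules, was the member that rose, by 0.79 ± 0.10. Outside this list Lgals9 (galectin 9) fell by 1.14 ± 0.11 with -1.0 on its second probe, and Ifi205, one of a cluster of near-identical interferon-inducible genes, rose by 1.31 ± 0.26 with 0.99 on its second.

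Among 31 immediate early genes 7 (22.6%) fell, near the share of all genes, and 2 (6.45%) rose, with a median of -0.06. Jund, a Jun family member present also in resting cells, had levels of 7.31, 7.87 and 8.10 at 48 weeks, against 9.37, 9.78 and 9.95 at 8 weeks. The groups lay more than 1 log2 unit apart, with a log2 difference of -1.95 ± 0.15 (3.85-fold lower, limma adjusted p = 9.09e-14). Fosb, which pairs with Jun proteins, had levels of 9.81, 10.03 and 10.32 at 48 weeks and 10.84, 11.90 and 12.43 at 8 weeks. It fell by 1.79 ± 0.27, and its difference in normoxic hearts was 0.23. Dusp6, the phosphatase that shuts off ERK, fell by 0.71 ± 0.17 and had -0.17 on its second probe, whereas Ier3, an early gene that protects from apoptosis, rose by 0.79 ± 0.15. In normoxic hearts 3 members of the list were higher at 48 weeks and 0 lower, where 0.907% of all genes were higher and 0.734% lower. Arc, an activity-regulated gene named after its values were seen, differed by 1.20 in normoxic hearts and by -0.33 in I/R hearts (adjusted p = 0.322), and the interaction of -1.53 passed (adjusted p = 0.00166).

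Of 30 chaperones 10 (33.3%) fell and 3 (10%) rose, against 20.7% and 18.6% of all genes, with a median of -0.09. Neither of the 2 members that passed and had a second probe kept its sign on it. Hsp90aa1, the inducible cytosolic Hsp90, was detected in no older and in all younger I/R hearts and was at least 1.95-fold lower, while at 32 weeks it stood 0.56 above 8 weeks. Hspa5 (BiP), the Hsp70 of the endoplasmic reticulum, had levels of 7.93 to 8.74 at 48 weeks, against 9.26 to 9.88 at 8 weeks, a log2 difference of -1.25 ± 0.17, and was not past the threshold at 32 weeks (-0.24, adjusted p = 0.26). Hsp90b1 of the same compartment fell by 0.66 ± 0.11, and Dnajb2, a co-chaperone, rose by 0.52 ± 0.08. Hsp90aa1 and Hspa5 had thus not passed as lower at 32 weeks.

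Clock genes differed in both directions. Of 16 measured, 6 (37.5%) rose (Per2, Dbp, Tef, Per3, Ciart and Csnk1d) and 3 (18.8%) fell (Arntl, Nr1d1 and Csnk1e), against 18.6% and 20.7% of all genes. The period genes Per2 and Per3 repress the clock's activators, Dbp and Tef are output factors that bind D-box elements, and Arntl (Bmal1) is one of the activators, which bind E-box elements. Dbp had levels of 11.75, 11.88 and 12.06 at 48 weeks and 8.28, 10.21 and 11.44 at 8 weeks. The older hearts lay close together while the younger ones spread widely, and the rise was 1.75 ± 0.52 (3.35-fold, limma adjusted p = 0.00612). Per2 rose by 2.02 ± 0.51, with levels of 8.27 to 10.20 at 48 weeks against 5.69 to 8.73 at 8 weeks, so its ranges overlapped. Arntl was detected in 0 of 6 older and 5 of 6 younger hearts and was at least 2.89-fold lower at 48 weeks.

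The younger hearts were not uniform. Replicate 2 at 8 weeks had the highest Dbp (11.44), Per2 (8.73) and Tef (11.20) of its group and the lowest Arntl (5.75), while replicate 4 had the lowest Dbp (8.28), Per2 (5.69) and Tef (9.81) and the highest Arntl (8.47). Without replicate 4 the rise of Dbp was 1.37 (adjusted p = 0.032) and that of Per3 did not pass (0.79, adjusted p = 0.0526, against 0.95 with all hearts). Per3 also did not pass with the integrity number as a covariate (adjusted p = 0.0674), with the authors' values (0.0578) or with the mean of its probes (0.108). Tef rose by 1.16 ± 0.27 with -0.39 on its second probe, and Ciart, a repressor of the clock, by 0.92 ± 0.21. Nr1d1 (Rev-erb alpha), the nuclear receptor that represses Arntl, fell by 0.89 ± 0.18 with -0.55 on its second probe. Csnk1d and Csnk1e, the kinases that mark period proteins, went opposite ways on their brightest probes (0.47 and -0.57), and the second probe of Csnk1e gave 0.43. With all detected probes averaged neither kinase passed. At 16 weeks Per2 already stood 1.89 and Arntl -1.62 from 8 weeks. Between normoxic hearts of 48 and 8 weeks 0 genes of the list passed (limma, 1 at an unadjusted p under 0.05), where 1.64% of all genes passed. The interaction passed for 4 of the 16 clock genes, near the 21.4% of all genes. These counts therefore do not set the list apart by treatment. The hour at which each heart was taken is not given in the labels, and its part in these differences was not tested.

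Promoter sequence was read for these genes because the clock's activators and outputs bind known short elements. The RefSeq promoter table (GRCm38.p6), with 1 chromosome left out, held 13 of the 16 clock genes. The 250 bases before the start were searched on both strands for the E-box CACGTG and the D-box TTATGTAA, which do not overlap each other. The E-box was found for Ciart, Tef and Per1 and is present in 6.02% of the 32851 promoters searched. A gene can have more than 1 promoter there, so counts of genes and shares of promoters are not on the same basis. The D-box was found for Per3 and is present in 0.819% of them. The windows below are shown for the genes that rose, 5′ to 3′ on the gene's strand, with the elements in capitals.
Ciart, chr3:95882247-95882364, minus strand: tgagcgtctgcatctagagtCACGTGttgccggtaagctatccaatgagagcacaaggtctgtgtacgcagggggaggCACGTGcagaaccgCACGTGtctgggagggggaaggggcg
Tef, upstream start, chr15:81802526-81802571, plus strand: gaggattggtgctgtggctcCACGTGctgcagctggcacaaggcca
Tef, downstream start, chr15:81811256-81811301, plus strand: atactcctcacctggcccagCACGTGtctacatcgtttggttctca
Per3, chr4:151044796-151044890, minus strand: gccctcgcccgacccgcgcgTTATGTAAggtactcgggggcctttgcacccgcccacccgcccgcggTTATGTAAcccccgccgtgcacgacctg
Ciart has 3 E-boxes, the first of them 116 bases before the start, and each start of Tef has 1. The Per3 window holds 2 D-boxes. A match describes these letters and not a bound site, and the genes of the list without a match may be bound elsewhere.

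**Figure D5:**
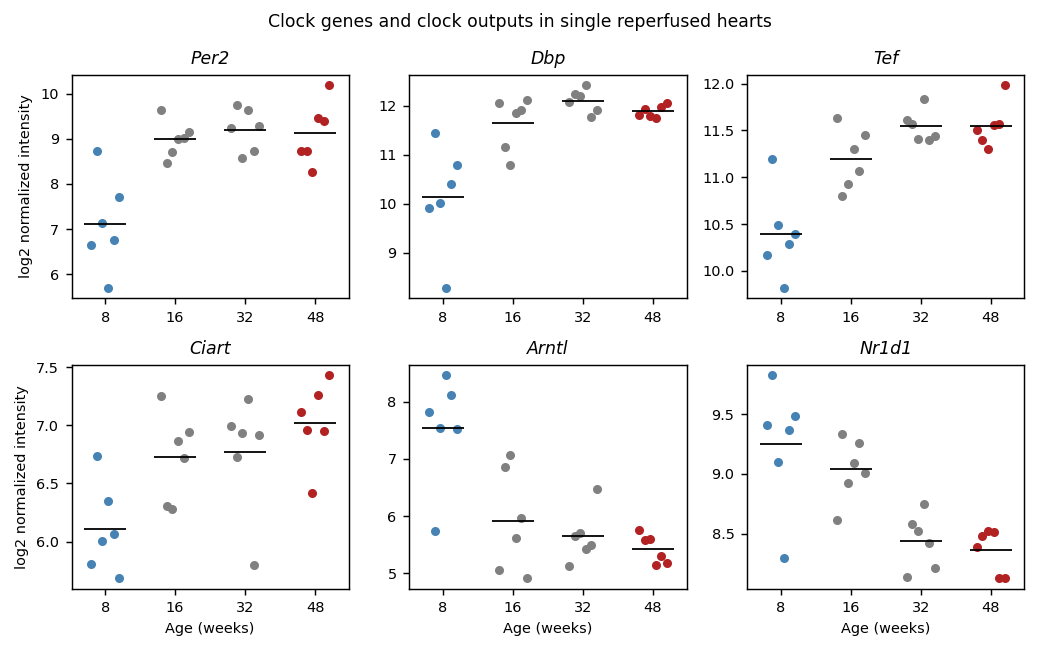
Log2 normalized intensity of 6 clock genes in single reperfused hearts (points) at 8, 16, 32 and 48 weeks, with the group mean as a line and a separate y range in each panel. Per2, Dbp, Tef and Ciart are higher and Arntl and Nr1d1 lower at 48 than at 8 weeks, and 1 heart of 8 weeks (replicate 2) lies near the older hearts for Dbp, Tef and Arntl.

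Of 35 genes of fatty acid uptake and oxidation 7 rose and 7 fell, 20% each, which is near the shares of all genes. Besides Decr1, Acadvl, the first enzyme of long-chain oxidation, rose by 0.47 ± 0.07, and Ucp3, an uncoupling protein of the inner membrane, fell by 0.93 ± 0.32 with -1.14 on its second probe. The fall of Ucp3 did not pass with median-centred arrays (adjusted p = 0.179). Of 25 genes of glucose use 9 (36%) rose and 10 (40%) fell, against 18.6% and 20.7% of all genes. Slc2a1 (GLUT1), the insulin-independent glucose transporter, had levels of 8.80, 9.01 and 9.17 at 48 weeks, against 7.92, 8.22 and 8.64 at 8 weeks. The groups did not overlap, with a rise of 0.76 ± 0.12. Tpi1, a glycolytic isomerase, rose by 0.46 ± 0.07 with 0.60 on its second probe. Ldha, which makes lactate, fell by 0.59 ± 0.06, and Pdk2, which holds pyruvate dehydrogenase inactive, fell by 0.85 ± 0.09. Respiratory subunits were lower more often than higher, 10 (31.3%) against 4 of 32 in complex I (median -0.10) and 16 (42.1%) against 1 of 38 in complexes II to V (median -0.16). Of all genes 20.7% were lower and 18.6% higher. Of complex I, Ndufb9 fell by 0.96 ± 0.12 and Ndufb4 fell by 0.84 ± 0.15. Of cytochrome oxidase, Cox7b fell by 1.03 ± 0.16 and Cox8a fell by 0.47 ± 0.07. Ndufb4 and Cox7b did not pass at 32 weeks (0.08 and -0.18).

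Ion channel genes gave 7 falls (23.3%) and 4 rises (13.3%) among 30, and calcium handling genes 6 falls (25%) and 5 rises (20.8%) among 24, near the shares of all genes. Kcnk3 (TASK-1), a background potassium channel, had levels of 8.72, 8.85 and 9.23 at 48 weeks, against 10.11, 10.32 and 10.66 at 8 weeks. The groups were well apart, with a log2 difference of -1.46 ± 0.11 (2.76-fold lower, limma adjusted p = 9.88e-14), -0.75 on the second probe and -0.07 in normoxic hearts. Kcnip2, the partner of the Kv4 channels that carry the early repolarising current, fell by 1.19 ± 0.24, but its second probe gave -0.05. Of 30 sarcomere genes 4 (13.3%) rose and 6 (20%) fell, against 18.6% and 20.7% of all genes.

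For the other lists the counts are set against the 18.6% higher and 20.7% lower of all genes. Counts of higher and lower members were 8 and 5 of 35 for Rab GTPases, 9 and 7 of 39 for phospholipid, sphingolipid and sterol synthesis, 7 and 12 of 33 for the proteasome, 6 and 11 of 42 for cytosolic ribosomal proteins and 13 and 20 of 67 for mitochondrial ribosomal proteins. They were 2 and 11 of 25 for autophagy and lysosome, 4 and 8 of 32 for TGF-beta, BMP and Wnt signalling, 6 and 5 of 23 for oxidative stress defence, and 1 and 5 of 24 for the unfolded protein response. Growth arrest and senescence genes gave 7 and 2 of 17, hypertrophy genes 6 and 1 of 20, cell death genes 3 and 4 of 20, and complement genes 2 and 2 of 12.

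For some genes 2 probes passed in the same direction, and those with the largest differences were named after their values were seen. Rab5b, a GTPase of early endosomes, had levels of 5.56, 5.80 and 6.61 at 48 weeks, against 7.02, 7.46 and 7.62 at 8 weeks. The groups did not overlap, and it fell by 1.44 ± 0.15, with -1.74 on its second probe. The DNA-binding factor Ssbp3 fell by 1.09 with -1.06 on its second probe, and the factor Cux1 fell by 0.93 with -0.99 on its second. Rbm38, an RNA-binding target of p53, fell by 0.89 with -1.34 on its second probe. Gsta2, a glutathione transferase, rose by 1.02 and 1.36 and was also 1.5 higher in normoxic hearts. Ociad2, a protein of mitochondria and endosomes, rose by 0.89 and 0.96, and the histone gene H4c4, whose copies are alike in their coding sequence, by 0.87 and 0.74.

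In other genes the 2 probes passed in opposite directions, so no direction can be given for the gene. Tsc2, the brake on mTOR signalling, was 0.77 ± 0.11 higher on its brightest probe and -1.54 on the other. Csnk2a2, a catalytic subunit of casein kinase 2, gave 0.85 and -0.81. Krit1, which supports endothelial junctions, gave 0.88 and -1.03, and Rusc1, an adaptor of signalling and vesicle transport, gave -0.68 and 0.84.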

How the data were processed

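RNA of 48 left ventricles was measured on Illumina bead arrays, and the 12 I/R hearts of 48 and 8 weeks are compared here. The deposited signals are probe intensities on a linear scale without normalization, per the file headers. The deposited detection column rises with the signal (lowest rank correlation 0.995) and was read as a fraction, 1 minus the detection p. The authors' deposited set of processed values is close to a log2 scale, with column medians of 7.81 to 7.83. Its transform and normalization are not given in the sources used here, beyond the tool lumi in the submitters' processing notes. It served as an alternative.

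Signals of 46624 probes were background-corrected (normexp, offset 16), quantile-normalized and put on the log2 scale with neqc of limma 3.58.1 (R 4.3.3). Reading used data.table at version 1.17.8. Probes with a detection p below 0.05 on 6 or more arrays were kept (17624, with no symbol for 4077). The brightest probe stood for each of 9811 genes, named through the platform annotation with symbols updated by Entrez number. A model with a mean for each of 8 groups was fitted to 48 arrays (lmFit, eBayes). P-values are two-sided and adjusted over all genes by Benjamini-Hochberg, or over all probes for second probes. The interaction is the difference of age differences, I/R minus normoxic. The number of arrays, 6 a group, limits the precision.

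Named genes are the 12 largest differences in each direction, the 8 with the smallest interaction p, the 8 largest normoxic differences in each direction, up to 4 members per list, and genes with opposite signs between treatments or probes; others are said to be named after seeing values, as are Ciart, Tef, Per3, Adipoq and Car3. The members of the comparison and the gene lists were chosen with earlier results of these data known. Same-numbered hearts of the 2 ages do not deviate together (correlations of -0.09 to 0.02), so the numbers were not used as pairs. The model was tested on simulated data. Alternatives were the scaling, the background correction, the authors' values, fewer arrays, the integrity number as a covariate, array weights, filters, the probe rule, a replicate block and leaving out each heart.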

Additional observations from a re-analysis of the deposited data

Results flagged for a closer look

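For 24 genes the difference between 48 and 8 weeks in I/R hearts differed from that in normoxic hearts by the interaction test (limma, adjusted over all genes, 21.4% of which passed), and the values given here are I/R minus normoxic on the log2 scale. Among the 119 genes described, 76 passed that test. The 24 are the 8 with the smallest p, those that passed in opposite directions, and 4 others whose differences under both treatments are given above. Of the 8 with the smallest p, Tle5 had -1.35 (adjusted p = 2.85e-12), Cox4i2 -2.15, Selenow -1.37, Lbh -2.55, Decr1 1.45, Pgls 1.11, Pcbp4 0.96 and Tmem214 1.20. The value of Tmem214 describes 1 probe, since its second probe had the other sign in I/R hearts. Of the genes that passed in opposite directions, Uba6 had -1.45 (adjusted p = 1.79e-06), Pbxip1 -1.18, Acad11 -0.69, Stab1 0.84, Ankrd10 0.83, Sppl2b 0.80, Dcakd 0.72, Igf2 0.71, Atox1 0.67, Coq6 0.57, Dbndd2 0.57 and Cdk2ap1 0.44. The other 4 were Fosb with -2.01 (adjusted p = 0.000171), Arc with -1.53 (adjusted p = 0.00166), Cdh5 with -1.46 (adjusted p = 5.02e-07) and Kcnk3 with -1.40 (adjusted p = 2.49e-08).

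Single hearts stood apart from the other 5 of their group by Dixon's ratio for 13 of the 119 genes, where chance gives about 1 in 20 groups and 2 groups were examined per gene. At 48 weeks, Efnb2 in replicate 6 had a log2 level of 6.31 (nearest other heart 5.66), Klk1b26 in replicate 1 had 7.49 (nearest 6.90) and Tfrc in replicate 2 had 10.04 (nearest 9.48). Replicate 1 was low for BC048679, at 5.45 (nearest 6.39). Replicate 4 was high for Dnajb2, at 11.15 (nearest 10.82), and low for Cox8a, at 11.62 (nearest 11.82). At 8 weeks, replicate 4 was low for Rbm38 at 10.18 (nearest 10.47), for Rusc1 at 7.75 (nearest 8.09) and for Serpinh1 at 12.71 (nearest 13.03), the same heart that had the lowest Dbp and the highest Arntl. It was high for the fat cell markers Adipoq at 10.15 (nearest 6.56) and Car3 at 10.54 (nearest 6.02). Replicate 2 was low for Arntl at 5.75 (nearest 7.52), and replicate 6 was low for Ociad2 at 6.14 (nearest 6.86).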

How the results depend on the processing

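The count of genes that passed between 48 and 8 weeks in I/R hearts was 3855, and ran from 3179 with the integrity number as a covariate to 3939 with the authors' values over 11 alternatives, and from 3612 to 3814 when single hearts were left out. The interaction count of 2097 ran from 1668 (mean of all detected probes) to 2289 (array weights) and from 1930 to 2093 without single hearts. Array weights gave 359 normoxic genes, against 161, and 192 genes shared in direction by both treatments, against 92; the cause was not tested. Genes that passed on both probes in the same direction numbered 166 with the integrity covariate, against 248, and 205 to 238 without single hearts. Median centring moved the median log2 difference over all genes to 0.08, against -0.01, and gave 2052 higher and 1636 lower genes, against 1829 and 2026. Replicate numbers do not pair the hearts, and a replicate block gave 3873, 2075, 154, 93 and 250 for these 5 counts. The difference in integrity number of -0.48 was -0.523 to -0.44 without single hearts (highest exact permutation p 0.00433). Of the 115 genes described that passed, 96 kept their direction and passed in all 23 settings. Averaging all detected probes of a gene reversed 5: Ankrd10 (-0.00407), Stab1 (-0.029), Krit1 (-0.0707), Tsc2 (-0.385) and Rusc1 (0.0780). Of the other 14, Csnk2a2, Csnk1e, Csnk1d, Coq6, Per3 and Igf2 did not pass with averaged probes, and Cdk2ap1 did not pass with only the 12 arrays compared. The difference of Car3, which did not pass (-0.73, adjusted p = 0.216), was 0.118 without 8-week replicate 4 and reached -0.964 without other single hearts. For some genes the size of the I/R difference also depended strongly on the processing, though its direction did not. Over the 23 settings it ran from -2.23 to -0.91 for Cox4i2 and from 0.81 to 2.35 for Sh3gl2. For Itga5 it ran from -2.03 to -0.61. The range was narrow for Lbh (-2.13 to -1.89) and Decr1 (1.48 to 1.69). Without single hearts Cox4i2 stayed between -2.23 and -2.04. Whether probes of low signal over background missed smaller differences was not tested.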
